A study of Mus musculus with 9 samples.

Results

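Lymphoid priming is the low-level use of lymphoid genes by blood progenitors that have not yet chosen a lineage. The 10 genes described here were chosen by name as genes of lymphoid priming and antigen receptor recombination: Dntt, Rag1, Rag2, Il7r, Cd27, Notch1, Ikzf1, Ebf1, Tcf3 and Bcl11a. Each matched 1 row of the deposited tables, which list 19454 genes, and 9 of the 10 had enough counts to be tested. The exception was Rag1.

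The data are RNA sequencing of haematopoietic stem cells (HSCs) sorted from the bone marrow of wild-type mice, with 1500 cells and 12 PCR cycles per library and 3 groups of 3 libraries. Control libraries carry no brain intervention in their labels, and whether control mice received a virus or drug is not given in the sources used here. In the inhibition group the mPFC and PAG brain regions were inhibited chemogenetically, a method that usually silences neurons through a designed receptor and its drug, and the library names read AAV, a viral gene carrier. Mice of the spermidine group were inhibited in the same way and also received spermidine, a polyamine. An effect of virus or drug therefore cannot be told apart from one of the silenced regions in either comparison with control. The promoter that drove the receptor, the surface markers of the sort, and the age and sex of the mice are not given in the sources used here, nor is it stated that the libraries of a group came from separate mice. The p-values therefore measure the spread between libraries, which may be technical.

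In developing lymphocytes, the proteins RAG1 and RAG2 cut antigen receptor genes together, and terminal deoxynucleotidyl transferase, the product of Dntt, adds bases at the joints before they are sealed. The receptor for interleukin 7, of which Il7r encodes the alpha chain, carries survival signals in early B and T cells. Ikaros (Ikzf1), the E2A proteins (Tcf3), EBF1 and BCL11A are transcription factors needed for early lymphoid or B cell development, and Notch1 is the receptor whose signal starts T cell development. Ikzf1, Tcf3 and Bcl11a are also active in stem and progenitor cells outside the lymphoid lineage.

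The proximal promoters of 4 members are shown because 3 of them (Dntt, Il7r and Cd27) rose together in the inhibition group, whereas Rag1 stayed close to 0. Each line gives the 250 bases before the start of the gene, 5′ to 3′ on the strand of the gene, from RefSeq on build GRCm38.p6, whose gene starts can differ from the GENCODE spans given for each gene (the Il7r window lies within its GENCODE span). Capitals mark letters that match CANNTG (the E-box, which E proteins such as E2A bind), GGGAA (the core of Ikaros sites), CCCNNGGG (the core of EBF sites) or TGGGAA (the core of RBPJ sites, which contains GGGAA), on either strand.
Dntt promoter, chr19:41029025-41029274, plus strand: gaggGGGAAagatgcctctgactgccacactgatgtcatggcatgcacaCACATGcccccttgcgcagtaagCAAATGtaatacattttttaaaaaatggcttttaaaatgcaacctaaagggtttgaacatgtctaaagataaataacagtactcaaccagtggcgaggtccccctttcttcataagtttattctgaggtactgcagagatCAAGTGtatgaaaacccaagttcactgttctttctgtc
Rag1 promoter, chr2:101649533-101649782, minus strand: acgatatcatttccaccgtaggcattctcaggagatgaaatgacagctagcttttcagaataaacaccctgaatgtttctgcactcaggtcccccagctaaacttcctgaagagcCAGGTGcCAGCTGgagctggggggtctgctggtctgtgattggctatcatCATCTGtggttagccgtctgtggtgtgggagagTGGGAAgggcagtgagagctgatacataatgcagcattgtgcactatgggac
Il7r promoter, chr15:9529877-9530126, minus strand: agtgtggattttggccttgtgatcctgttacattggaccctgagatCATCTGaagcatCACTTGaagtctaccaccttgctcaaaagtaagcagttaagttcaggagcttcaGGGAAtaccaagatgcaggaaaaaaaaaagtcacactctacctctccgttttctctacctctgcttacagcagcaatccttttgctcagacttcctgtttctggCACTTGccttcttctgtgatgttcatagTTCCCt
Cd27 promoter, chr6:125237028-125237277, minus strand: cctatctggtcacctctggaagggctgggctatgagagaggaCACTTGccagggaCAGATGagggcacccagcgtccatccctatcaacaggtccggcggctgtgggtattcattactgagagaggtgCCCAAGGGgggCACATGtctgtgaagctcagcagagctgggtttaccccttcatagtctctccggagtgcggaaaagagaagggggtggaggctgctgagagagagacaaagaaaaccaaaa

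The Dntt, Rag1, Il7r and Cd27 windows held 3 E-boxes each. Of the other members that rose with inhibition by counts and TPM, Rag2 held 1, Notch1 held 0, and the 2 Ebf1 windows held 0 and 1. How many windows of all genes hold 3 was not counted. All 10 members had a RefSeq promoter, and 8 held an E-box in at least 1 of their promoter windows, against 66.2% of the 32817 windows of this length in the table. The Ikaros core stood in 7 of 10 members (56.2% of all windows), the EBF core in 2, Cd27 and Ikzf1 (11.8%), and the RBPJ core in 3, Rag1, Ebf1 and Bcl11a (21.6%). Ikzf1 and Ebf1 have 2 windows each, which gives them more chances of a match. A match is a run of letters and does not show that a factor binds there.

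Expression is given as counts scaled to a fixed library total (CPM), scaled between libraries by trimmed means (TMM), and as TPM, which the authors scaled within each library for length and depth. Only TPM is compared between genes. Library totals were 16096117 to 25360110 estimated counts, so a count of 0 allows up to 0.117 to 0.184 CPM (a floor of 3 counts, which covers counting error only). Against the sorted cell type, the stem cell markers Procr and Ly6a were at 0.125 and 6.21 CPM in control, and at 4.10 and 83.5 CPM with inhibition. Kit stood at 43.3, 36.5 and 46.5 CPM in control, inhibition and spermidine, and Slamf1 at 105, 17.6 and 13.8 CPM.

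In inhibition against control, which asks how HSC expression differed between silenced and control libraries, the members did not all go one way. Dntt, Ebf1, Il7r, Cd27, Rag2 and Notch1 were higher, Tcf3 was lower, and Ikzf1 and Bcl11a differed least. By the quasi-likelihood test of edgeR with a threshold of 0.05 on the adjusted p, 7 of 9 tested members were higher and 2 were lower. The 7 include Ikzf1, which was higher by counts and lower by TPM. Of all 14461 tested genes 72.4% passed, 36.2% higher and 36.1% lower, so passing the test does not set these members apart. The libraries of these groups did not overlap for 9 of 10 members, against 74.5% of tested genes. The median log2 fold change was 1.16 over the tested members and 0.02 over all genes. Ebf1 passed the filter on low counts only through the inhibition and spermidine groups, and so had to be higher there.

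**Figure D1:**
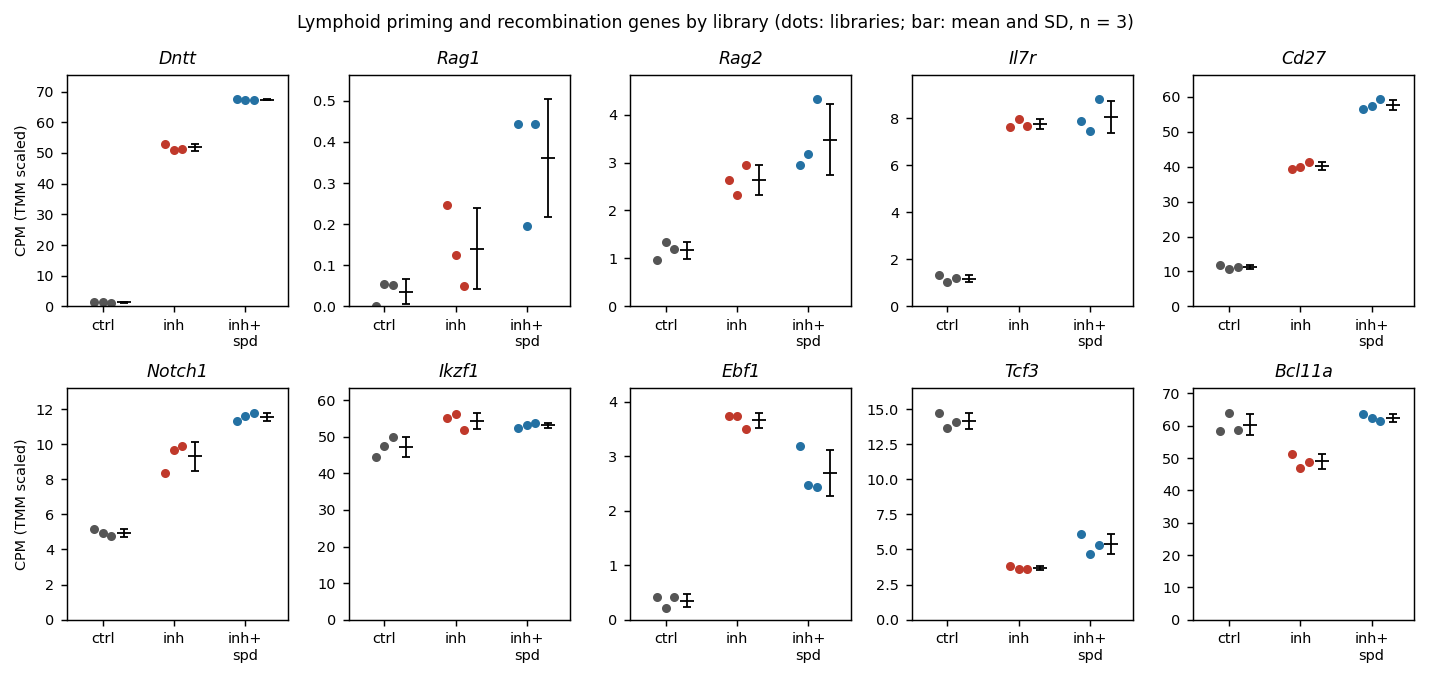
CPM (vertical axes, linear, from 0) of the 10 genes in each library (dots) with the group mean and SD (n = 3), for control (ctrl), inhibition (inh) and inhibition with spermidine (inh+spd). Dntt lies between 1.19 and 1.50 CPM in control and at 51.1 CPM or more in the other 6 libraries, while Tcf3 is highest in control.

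Among the recombination genes, Dntt (ENSMUSG00000025014, protein coding, chromosome 19, 41029275 to 41059525, plus strand, GENCODE M21 on mm10) had the largest change. It stood at 1.46, 1.50 and 1.19 CPM in the control libraries, at 53.0, 51.1 and 51.3 CPM with inhibition, and at 67.5, 67.3 and 67.2 CPM with inhibition and spermidine. The 3 groups did not overlap, and every library with inhibition was far above every control library. The log2 fold change was 5.23 (SE 0.076) in inhibition against control, a 37.5-fold rise, which ranked 217 of 14461 tested genes from the top. Spermidine with inhibition against inhibition added 0.38 (SE 0.039, edgeR adjusted p = 4.45e-07), a ratio of 1.30. Per length, Dntt rose from 0.532 TPM (SD 0.0317) in control to 20.7 TPM (SD 0.786) with inhibition and 33.6 TPM (SD 0.117) with spermidine (n = 3 each).

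Rag1 (ENSMUSG00000061311, chromosome 2, 101638282 to 101649501, minus strand), the catalytic subunit of the recombinase, was close to absent. Control libraries held 0, 1 and 1 reads, inhibition libraries 4, 3 and 1, and spermidine libraries 11, 5 and 8. Summed over a group this was 2, 8 and 24 reads, or 0.0367 CPM (exact 95% Poisson interval 0.00444 to 0.133), 0.133 CPM (0.0572 to 0.261) and 0.351 CPM (0.225 to 0.522). The control and inhibition libraries overlapped at 1 read, whereas every spermidine library lay above every control library. The ratio of spermidine to control was 9.56, with a counting interval of 2.37 to 83.5 that does not include the spread between libraries. For inhibition to control it was 3.61 (0.721 to 34.9), so no difference was detectable at this depth. For spermidine to inhibition the ratio was 2.65, with a counting interval of 1.15 to 6.81. The libraries of those groups overlapped, and edgeR with no filter on low counts did not pass (adjusted p = 0.0853). Over the 9 libraries Rag1 reached at most 0.0573 TPM.

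Rag2 (ENSMUSG00000032864, chromosome 2, 101624718 to 101632529, plus strand), the second subunit, gave more reads than Rag1. It stood at 0.971, 1.34 and 1.19 CPM in control, at 2.64, 2.33 and 2.95 CPM with inhibition, and at 2.94, 3.17 and 4.32 CPM with spermidine. All libraries with inhibition were above control (log2 fold change 1.16, SE 0.22, inhibition against control), whereas the inhibition and spermidine libraries overlapped (0.38, SE 0.17, edgeR adjusted p = 0.0698). Rag2 is uncertain as a measure of the recombinase, because the gene Iftap crosses it on the opposite strand. Iftap shares 208 of the 3424 exon bases of Rag2 (6.07%), and no strand-specific step is stated. With Rag1, which lies on its own strand, it shares 80 of 6608 exon bases. Iftap stood at 72.8 to 88.1 CPM over the 9 libraries, and the Rag2 count was 1.26% to 5.50% of the Iftap count. Iftap rose by less than Rag2 (log2 fold change 0.19, SE 0.039, inhibition against control), and how many Rag2 reads came from Iftap was not tested.

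The receptors rose with inhibition. Il7r (ENSMUSG00000003882, chromosome 15, 9505788 to 9530176, minus strand) stood at 1.33, 1.02 and 1.19 CPM in control, 7.62, 7.97 and 7.65 CPM with inhibition, and 7.86, 7.47 and 8.80 CPM with spermidine. Both inhibition groups were above control without overlap, and they overlapped each other. The log2 fold change was 2.72 (SE 0.14) in inhibition against control. In spermidine with inhibition against inhibition it was 0.04 (95% interval from the SE, -0.14 to 0.22, edgeR adjusted p = 0.754), which does not show that the groups were alike.

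Cd27 (ENSMUSG00000030336, chromosome 6, 125232622 to 125237010, minus strand) encodes a receptor of the tumour necrosis factor family found on lymphocytes and on part of the progenitor cells. It stood at 11.7, 10.6 and 11.4 CPM in control, 39.3, 40.0 and 41.4 CPM with inhibition, and 56.6, 57.3 and 59.3 CPM with spermidine. The groups formed 3 separate steps, lowest in control. The log2 fold change was 1.85 (SE 0.055) in inhibition against control and 0.52 (SE 0.043, edgeR adjusted p = 3.87e-08) in spermidine with inhibition against inhibition.

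Notch1 (ENSMUSG00000026923, chromosome 2, 26457903 to 26516663, minus strand) stood at 5.16, 4.93 and 4.75 CPM in control, 8.36, 9.68 and 9.90 CPM with inhibition, and 11.3, 11.6 and 11.8 CPM with spermidine. The log2 fold change was 0.92 (SE 0.095) in inhibition against control and 0.30 (SE 0.08, edgeR adjusted p = 0.00408) in spermidine with inhibition against inhibition. On the CPM scale the 3 groups did not overlap. Antisense transcripts of 0610009E02Rik and Gm13568 share 7.50% and 2.91% of the Notch1 exon bases, and their reads cannot be told apart from those of Notch1 without strand. On the TPM scale the inhibition libraries (0.701, 1.30 and 0.790 TPM) spread over the lower end of the spermidine libraries (1.22, 1.39 and 1.19 TPM), and the later step missed the threshold (limma on log2(TPM + 1), adjusted p = 0.096).

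The transcription factors did not move as 1 group. Ebf1 (ENSMUSG00000057098, chromosome 11, 44617317 to 45008091, plus strand), a factor that commits cells to the B lineage, stood at 0.425, 0.215 and 0.413 CPM in control, 3.75, 3.74 and 3.50 CPM with inhibition, and 3.18, 2.47 and 2.44 CPM with spermidine. Control held only 7.07, 4.05 and 8.47 estimated counts, and both inhibition groups lay above it. Ebf1 reached the cut-off of the low-count filter in 0 control libraries and in 3 of each other group. Its direction against control was therefore set by the filter and is no separate result. The log2 fold change was 3.37 (SE 0.25) in inhibition against control. In spermidine with inhibition against inhibition it was -0.43 (SE 0.16, edgeR adjusted p = 0.0274), the 1 member that fell there. That fall missed the threshold without inhibition replicate 1 (adjusted p = 0.0599), inhibition replicate 2 (0.0822), spermidine replicate 2 (0.102) or spermidine replicate 3 (0.084).

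Tcf3 (ENSMUSG00000020167, chromosome 10, 80409514 to 80433647, minus strand), which encodes the E2A proteins, went the other way. It stood at 14.7, 13.6 and 14.1 CPM in control, 3.81, 3.61 and 3.60 CPM with inhibition, and 6.13, 4.70 and 5.31 CPM with spermidine. The groups did not overlap, with control highest and inhibition lowest. Tcf3 fell by 1.95 on the log2 scale (SE 0.10) in inhibition against control, a 3.85-fold fall, and rose by 0.55 (SE 0.12, edgeR adjusted p = 0.000784) in spermidine with inhibition against inhibition. It remained below control with spermidine (log2 fold change -1.39, SE 0.095).

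Bcl11a (ENSMUSG00000000861, chromosome 11, 24078056 to 24174123, plus strand), a zinc finger factor of B cell development and of globin gene control, stood at 58.4, 64.0 and 58.6 CPM in control, 51.4, 46.8 and 48.6 CPM with inhibition, and 63.8, 62.3 and 61.3 CPM with spermidine. The inhibition libraries were the lowest. The antisense gene 4930538E20Rik shares 2.40% of the Bcl11a exon bases. The log2 fold change was -0.31 (SE 0.047) in inhibition against control and 0.36 (SE 0.046, edgeR adjusted p = 6.01e-06) in spermidine with inhibition against inhibition. Against control the spermidine group was at 0.05 (SE 0.045, edgeR adjusted p = 0.319) and overlapped it. That value depended on the scaling: it became 0.31 by total count and 0.32 with limma on log2(TPM + 1), both past the threshold.

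Ikzf1 (ENSMUSG00000018654, chromosome 11, 11685003 to 11772926, plus strand), which encodes Ikaros, had opposite directions on the 2 scales. It stood at 44.4, 47.5 and 49.9 CPM in control, 55.1, 56.2 and 51.9 CPM with inhibition, and 52.4, 53.2 and 53.7 CPM with spermidine, so control was lowest (log2 fold change 0.20, SE 0.047, edgeR adjusted p = 0.00111, inhibition against control). On the TPM scale control was highest, at 12.0, 12.2 and 13.1 TPM, against 8.29, 8.23 and 7.64 TPM with inhibition and 10.2, 9.56 and 9.32 TPM with spermidine. The fold change on the log2(TPM + 1) scale was -0.57 (limma, adjusted p = 1.38e-05). Counts divided by TPM give the transcript length that the deposited values imply. For Ikzf1 this length, relative to the median gene of a library, was larger by 0.89 on the log2 scale with inhibition than in control, or 1.85 times as long. A difference of more than 0.5 was seen in 10.2% of 14327 genes. The 6 annotated Ikzf1 transcripts, all coding, run from 242 to 5163 bases. Which of them were counted in each group was not analysed here, so the direction of Ikzf1 against control is given by scale only.

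The implied length also differed for Il7r (-0.53 with inhibition against control) and Ebf1 (0.52), whose directions were the same on both scales. For Dntt it differed by 0.01.

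**Figure D2:**
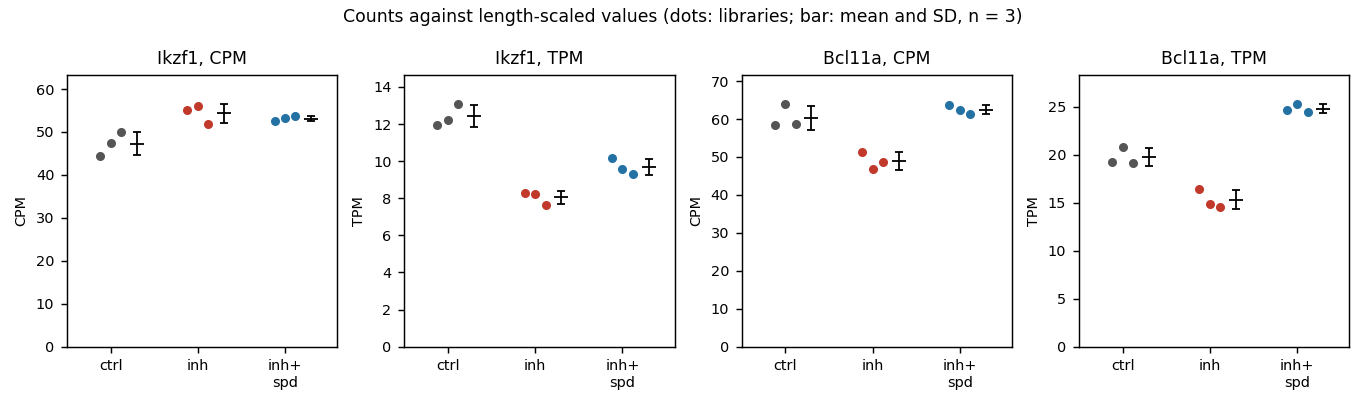
Ikzf1 and Bcl11a in each library (dots) as CPM and as TPM (vertical axes, linear, from 0), with the group mean and SD (n = 3). Ikzf1 control libraries are lowest by CPM (44.4 to 49.9) and highest by TPM (12.0 to 13.1), whereas Bcl11a is lowest with inhibition on both scales.

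The order of the members per length also changed. In control it ran Bcl11a (19.8 TPM), Ikzf1 (12.4), Cd27 (6.37), Tcf3 (5.35), then Dntt (0.532) and Notch1 (0.472), which overlapped, then Rag2 (0.231) and Il7r (0.203), which overlapped, then Ebf1 (0.0957) and Rag1. With inhibition Cd27 (22.6 TPM) and Dntt (20.7 TPM) came first, ahead of Bcl11a (15.3), Ikzf1 (8.05), Il7r (1.98) and Tcf3 (1.62). Notch1, Ebf1 and Rag2 (0.932, 0.710 and 0.691 TPM) followed and overlapped one another. With spermidine the first 4 kept this order, and Tcf3 (2.74 TPM) stood above Il7r (2.03 TPM). In all 3 groups Rag1 was last.

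The comparison of spermidine with inhibition against inhibition asks what the supplement changed in mice with the same inhibition. Dntt, Cd27, Notch1, Tcf3 and Bcl11a were higher and Ebf1 was lower. Rag2, Il7r and Ikzf1 did not pass. Thus 5 of 9 tested members were higher and 1 lower, where 58.1% of all genes passed (29.1% higher, 28.9% lower), and libraries did not overlap for 6 of 10 members against 62.8% of genes. The changes were smaller than those against control, with a median absolute log2 fold change of 0.38 over the members and 0.32 over all genes. Scaling by total count alone moves the median gene by 0.26 here and gives 8 members higher and 0 lower. Under it Ebf1 was at -0.17, Il7r at 0.30, Rag2 at 0.64 and Ikzf1 at 0.23. Of the values given here, Ikzf1 turned direction with this scaling, from -0.03 (SE 0.046, 95% interval -0.12 to 0.05).

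Comparing spermidine with inhibition against control, 7 of 9 tested members were higher, 1 was lower, Tcf3, and Bcl11a did not pass. The 7 include Ebf1, whose direction against control was set by the filter on low counts. Of all genes 78.1% passed, 41.0% higher and 37.1% lower. Libraries did not overlap for 9 of 10 members, against 79.8% of genes. The log2 fold changes were 5.61 (SE 0.073) for Dntt, 2.94 (SE 0.26) for Ebf1, 2.76 (SE 0.14) for Il7r, 2.36 (SE 0.053) for Cd27, 1.54 (SE 0.21) for Rag2, 1.23 (SE 0.091) for Notch1 and 0.17 (SE 0.047) for Ikzf1. Ikzf1 again went the other way by TPM, where every spermidine library was below every control library (-0.33 with limma on log2(TPM + 1)). By total count 53.3% of all genes were higher and 25.5% lower. The 3 comparisons share groups of libraries, so their values are not independent of one another.

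**Figure D3:**
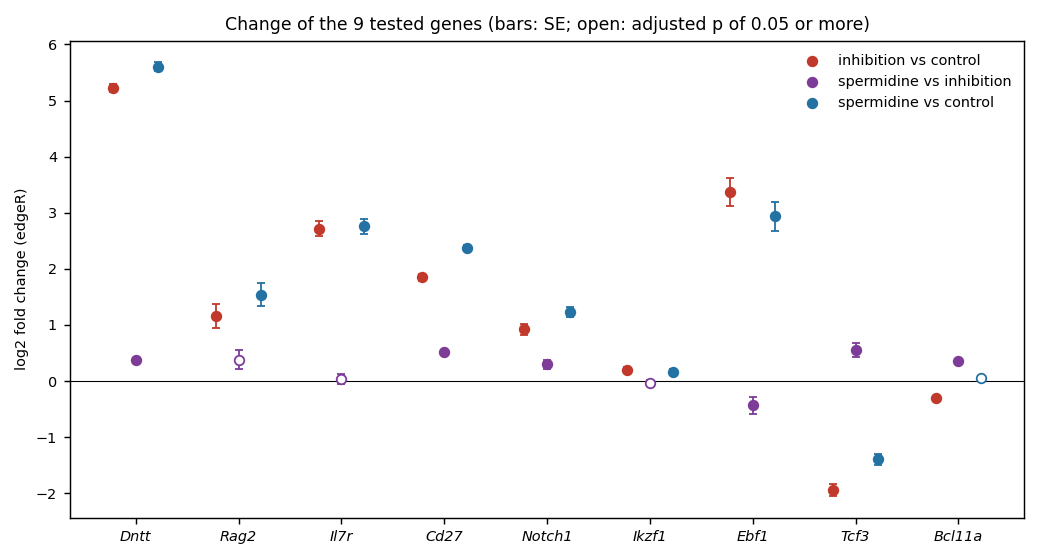
Log2 fold change from edgeR (vertical axis) of the 9 tested genes in the 3 comparisons, with SE bars, filled where the adjusted p was under 0.05. Dntt is above 5 in both comparisons with control and at 0.38 in spermidine against inhibition, and Tcf3 is below 0 in both comparisons with control.

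Markers of mature cells moved in the same libraries. In this bulk RNA, more cells of a type and more RNA per cell cannot be told apart. Counts of tested markers, here and below, stand against 36.2% higher and 36.1% lower among all genes in inhibition against control. In spermidine with inhibition against inhibition, all genes gave 29.1% higher and 28.9% lower. Shares are of the unscaled total count, whereas CPM is scaled by TMM. Total-count scaling moves the median gene by 0.26 (log2) in spermidine with inhibition against inhibition, so small differences in share there depend on the scale. Neutrophil markers (15 of 15 listed) took 0.532% to 0.549% of counts in control, 5.84% to 5.97% with inhibition and 2.49% to 2.59% with spermidine. Plasma cell markers (10 of 10) took 0.00221% to 0.00242%, 0.446% to 0.478% and 0.205% to 0.222%. Both shares were lower with spermidine than with inhibition alone, and 15 of 15 tested neutrophil and 5 of 8 tested plasma cell markers fell. Markers of erythroid and megakaryocyte cells (12 of 12) took 0.581% to 0.596%, 0.102% to 0.103% and 0.133% to 0.140%. Of these, 10 were lower in inhibition against control, such as Pf4 of platelets (2673 to 104 CPM), and 2 were higher, the globin genes Hba-a1 (23.5 to 177 CPM) and Hbb-bt (4.42 to 36.0 CPM). Monocyte and macrophage markers (11 of 11) took 0.0849% to 0.0882%, 0.508% to 0.523% and 0.242% to 0.256%.

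Mature B cell markers (11 of 11) took 0.00882% to 0.00886% of counts in control, 0.0139% to 0.0142% with inhibition and 0.0140% to 0.0148% with spermidine. By edgeR with TMM, 1 of 8 tested was higher and 3 were lower in spermidine with inhibition against inhibition. Pax5, which defines the B lineage, was at 0.105, 0.0138 and 0.0818 CPM in control, inhibition and spermidine, below 0.117 CPM in each group. T cell markers (9 of 11 found) took 0.000655% to 0.000732%, 0.00206% to 0.00232% and 0.00235% to 0.00243%, with Cd3e at 0.0374, 0.194 and 0.298 CPM. By edgeR with TMM, 3 of 6 tested were higher and 2 lower in spermidine with inhibition against inhibition. NK and innate lymphoid markers (11 of 11) took 0.120% to 0.130%, 0.178% to 0.191% and 0.114% to 0.124%, nearly all of it Nkg7 (1311, 1916 and 1026 CPM). In inhibition against control 9 of 10 tested were higher and 1 lower, and with spermidine against inhibition 2 were higher and 3 lower. The 9 include Klrb1c, Ncr1 and Gzmb, whose control means were under the low-count cut-off of 0.489 CPM (Gzmb 0.0351 CPM). These genes passed the filter through the libraries with inhibition, so their direction against control was set by it. Klrb1c stood at 0.259, 4.05 and 3.46 CPM, Ncr1 at 0.0374, 2.03 and 1.14 CPM, and Il1rl1 at 7.81, 1.70 and 1.99 CPM. Markers of plasmacytoid dendritic cells (10 of 10), cells that can also use Dntt, took 0.00844% to 0.00915%, 0.0278% to 0.0293% and 0.0366% to 0.0376%. Of 9 tested, 6 were higher in inhibition against control, such as Siglech (1.01 to 5.83 CPM), and 3 were lower, Bst2 (2.48 to 0.513 CPM), Spib (1.41 to 0.666 CPM) and Irf8 (20.7 to 16.7 CPM). No listed marker was at 0 in every library of a group. The part of any of these cells in the values of Dntt, Ebf1, Il7r or Cd27 was not tested.

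**Figure D4:**
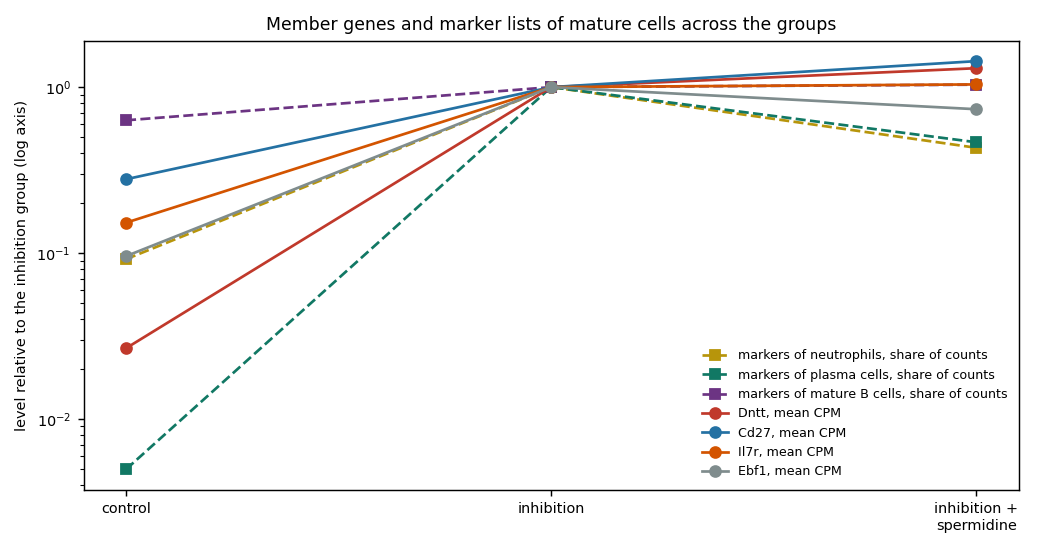
Mean level in each group relative to the inhibition group (vertical axis, log scale) for 4 member genes (CPM, solid lines) and 3 marker lists (share of counts, dashed lines). From inhibition to spermidine the neutrophil and plasma cell shares fall and the mature B cell share does not. By edgeR with TMM, however, 3 of 8 tested mature B cell markers were lower there and 1 was higher. Over the same step Dntt and Cd27 rise, mean Ebf1 goes from 3.66 to 2.70 CPM and mean Il7r from 7.75 to 8.04 CPM. Markers of plasmacytoid dendritic cells, which are not drawn, took a mean of 0.0285% of counts with inhibition and 0.0371% with spermidine. Shares are of the unscaled total and CPM is scaled by TMM.

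The other genes of these pathways come from lists drawn up from general knowledge, without the members. Their counts stand against 36.2% higher and 36.1% lower among all genes in inhibition against control. A listed gene that passed the low-count filter only through libraries with inhibition had to be higher in them. For spermidine against inhibition all genes gave 29.1% higher and 28.9% lower, or 53.3% and 12.4% by total count, and each of the 9 lists had more genes higher by total count. Of the lymphoid commitment factors and receptors, 16 of 25 tested genes were higher and 6 lower in inhibition against control (median log2 fold change 0.63, against 0.02 over all genes). Among those with the smallest p were Ly6d, a surface marker of B-committed lymphoid progenitors (10.2 to 147 CPM; a log2 change of 3.85, SE 0.059), Cd52, a surface glycoprotein of lymphocytes (1.79, SE 0.03), and Gimap6, a GTPase of lymphocytes (2.81, SE 0.054). Ly6d also stands in the list of plasmacytoid dendritic cells. With spermidine against inhibition, Cd52 fell by 0.94 (SE 0.029), Gimap6 rose (0.46, SE 0.04), and Ly6d was at -0.02 (SE 0.042). In that comparison 11 genes were higher and 8 lower, or 16 and 5 by total count.

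Genes that join the cut ends in recombination were lower more often than higher. Of 16 tested genes of V(D)J joining 5 were higher and 9 lower in inhibition against control (median -0.18). Dclre1c, which encodes the nuclease Artemis that opens hairpin ends, went from 17.2 to 5.21 CPM, a fall (-1.72 on the log2 scale, SE 0.094), and H2ax, a histone marked at breaks, fell (-0.81, SE 0.041). Xrcc4, a partner of the joining ligase, rose (0.74, SE 0.053). After spermidine 5 were higher and 5 lower than with inhibition alone, or 9 and 3 by total count.

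Of the IL-7 receptor signalling list, 9 of 18 genes were higher and 5 lower in inhibition against control (median 0.16). Il2rg, the common gamma chain that pairs with the product of Il7r, was higher, at 326 CPM against 93.4 CPM (1.80 on the log2 scale, SE 0.031). Jak1, the kinase on the alpha chain, rose (0.61, SE 0.037), as did Mcl1, a survival protein (1.35, SE 0.037), and Stat3 fell (-1.73, SE 0.057). With spermidine against inhibition 9 were higher and 1 lower, or 16 and 0 by total count.

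The Ikaros family, E proteins and partners had 8 of 21 genes higher and 8 lower (median 0.08). Id2, an inhibitor of E proteins, was higher, at 168 CPM against 81.9 CPM (1.04 on the log2 scale, SE 0.033), and Id1 was higher (0.79, SE 0.059), whereas Id3, of the same family, was lower (-1.08, SE 0.069), and Id4 was at 0.21 (SE 0.48). Id1, Id3 and Id4 were added after their values were seen. Tal1, a blood stem cell and erythroid factor that pairs with E proteins (-1.08, SE 0.068), its adaptor Ldb1 (-2.36, SE 0.11) and Mta1 of a deacetylase complex (-1.82, SE 0.12) fell. With spermidine against inhibition Id2 fell by 0.46 (SE 0.031), and Id1 (0.27, SE 0.052), Id3 (1.26, SE 0.066) and Id4 (1.39, SE 0.37) rose, and 14 genes were higher and 3 lower, or 17 and 1 by total count.

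The Notch pathway list had 11 of 30 genes higher and 13 lower (median -0.02). Hes1, a target of Notch signals, rose from 1.05 CPM in control to 14.5 CPM with inhibition (3.79 on the log2 scale, SE 0.13), and was higher again with spermidine (0.79, SE 0.072, spermidine against inhibition). Jag1, a Notch ligand, rose from 1.87 to 14.5 CPM (2.96, SE 0.13), whereas Rbpj, the DNA-binding partner of Notch, fell from 174 to 44.3 CPM (-1.97, SE 0.046), and Adam17, a protease, fell (-1.96, SE 0.076). Spermidine against inhibition gave 14 genes higher and 6 lower, or 19 and 2 by total count.

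Of the B-lineage genes regulated by EBF1 and E2A, 8 of 15 tested genes were higher and 3 lower in inhibition against control (median 0.49). Igll1 and Vpreb3, of the surrogate light chain and its partners in early B cells, rose from 1.71 to 9.24 CPM (2.44 on the log2 scale, SE 0.14) and from 1.33 to 7.71 CPM (2.54, SE 0.16), and Cd79a of the B cell receptor rose from 0.683 to 5.17 CPM (2.93, SE 0.23). Lef1, a factor of early lymphocytes, fell (-2.15, SE 0.15). With spermidine against inhibition Igll1, Vpreb3 and Cd79a were lower, by 0.53 (SE 0.10), 1.07 (SE 0.13) and 0.68 (SE 0.16) on the log2 scale. They stayed above control, by 1.91 (SE 0.14), 1.47 (SE 0.18) and 2.25 (SE 0.24). The plasma cell share went from 0.446% or more with inhibition to 0.222% or less with spermidine, and its part in these values was not tested. Of the list 5 were higher and 5 lower in spermidine against inhibition, or 7 and 4 by total count.

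Early T-lineage genes had 9 of 13 higher and 3 lower (median 1.07). Gata3, a factor of T cell specification, rose from 6.13 to 20.5 CPM (1.74 on the log2 scale, SE 0.08) and Cd3d from 2.34 to 9.06 CPM (1.96, SE 0.13), while Ptcra, the pre-T cell receptor chain, fell from 31.5 to 7.69 CPM (-2.03, SE 0.082), and Lat fell (-1.12, SE 0.068). With spermidine against inhibition Gata3 rose again (0.62, SE 0.06) and Cd3d fell by 0.94 (SE 0.11). The list then had 4 higher and 5 lower, or 7 and 4 by total count.

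**Figure D5:**
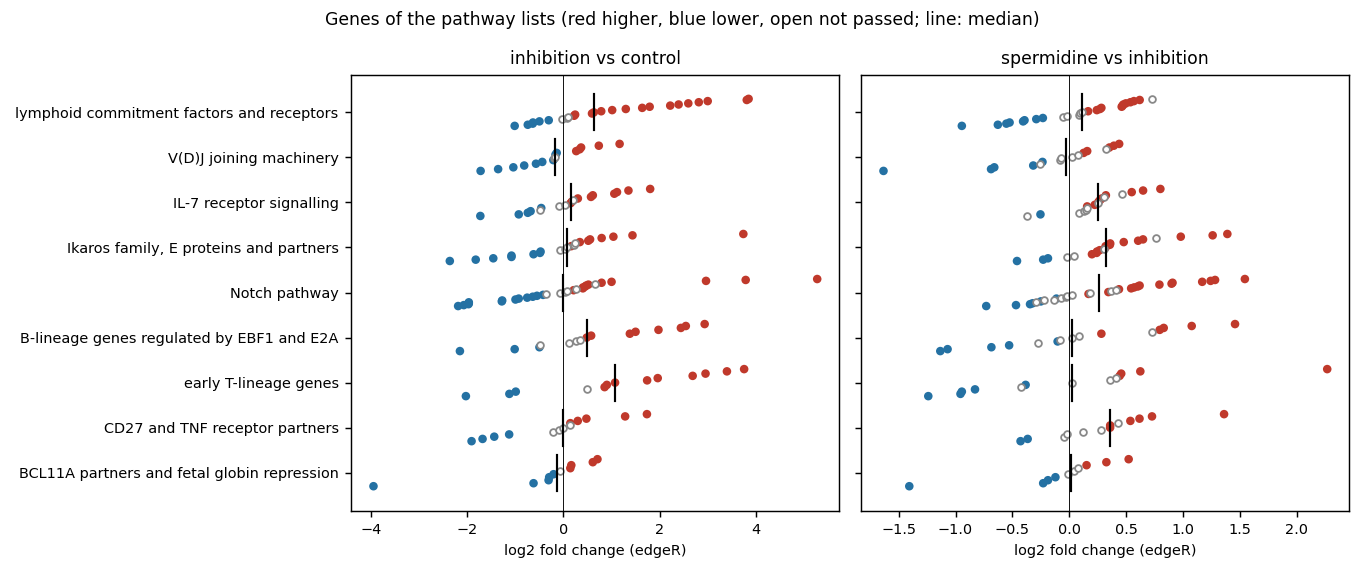
Log2 fold change from edgeR (horizontal axes) of each tested gene in 9 pathway lists for inhibition against control and spermidine with inhibition against inhibition. Red points are higher and blue lower at an adjusted p under 0.05, open points did not pass, and black lines are medians, which for the lymphoid commitment list lie at 0.63 and 0.11.

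Genes with the pattern most like a member were sought by the root mean square difference of centred log2 CPM over the 9 libraries, among 8233 genes with a mean of at least 5 CPM. For Dntt these were Vldlr, a lipoprotein receptor (0.23; 0.826, 36.9 and 41.5 CPM in control, inhibition and spermidine), Gbp8 (0.40) and Cd28, a co-stimulatory receptor of T cells (0.41; 0.458, 10.6 and 14.1 CPM). The nearest genes of Il7r were Ifitm1 (0.13; 250.2, 1630 and 1795 CPM), Sc5d (0.13) and Satb1, a chromatin organiser of lymphoid cells (0.14; 5.79, 30.4 and 34.0 CPM). For Ikzf1, whose CPM changed little, they were Dlat, Rars2 and Mtpap, all with mitochondrial products (0.04 each). The distance is not scaled to the size of a member's change, so distances are not compared between members. These distances describe 9 libraries in 3 groups, so they are a description only.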

How the data were processed

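Per the labels' protocol, polyadenylated RNA of 1500 sorted cells per library was reverse transcribed, amplified with 12 PCR cycles and made into libraries with a transposase kit. The submitters' processing notes name Trim Galore 0.6.2, STAR 2.6.1d, HTSeq 0.10.0, edgeR 3.24.3 and build mm10; which step made which values is not given in the sources used here. The authors deposited estimated counts (48.2% of values whole to within 1e-06) and TPM per gene, and the smallest count of a listed gene, summed over libraries, was 5.

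Counts were rounded and tested in R 4.3.3 with the quasi-likelihood test of edgeR 4.0.16 on all 9 libraries in 1 fit, with TMM scaling and edgeR's default filter, which kept 14461 genes. The Benjamini-Hochberg adjustment ran over these genes, with a threshold of 0.05. The SE is the absolute log2 fold change divided by the square root of its F statistic. The fits were tested on simulated data. Alternatives were DESeq2 1.42.0, limma 3.58.1 on log2(TPM + 1) and log2(TPM + 0.1), total-count scaling, no filter, 2 groups only, a replicate block, removal of other-cell marker genes, and leaving out each library. Of a pathway list, the 4 genes with the smallest p in inhibition against control are named, except some that are not reported here. Members and lists were chosen with earlier results of these data known. Same-numbered libraries were taken as unpaired, since their residuals correlated at -0.13 to 0.18. Gene positions come from GENCODE M21.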

Additional observations from a re-analysis of the deposited data

How the results depend on the processing

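Of 459 values of single members under the alternatives, 430 kept their direction and their side of the threshold, 12 missed it, 7 newly passed and 10 turned direction. With limma on log2(TPM + 1) and log2(TPM + 0.1), Ikzf1 turned to -0.57 and -0.62 in inhibition against control, to -0.33 and -0.36 in spermidine with inhibition against control, and to 0.24 and 0.26 in spermidine with inhibition against inhibition, where total-count scaling gave 0.23. With no filter, Il7r turned to -0.0050 in spermidine with inhibition against inhibition and Bcl11a to -0.0032 in spermidine with inhibition against control. Il7r also turned without spermidine replicate 3 (-0.018; leaving out 1 library gave -0.018 to 0.095). The implied length of Ikzf1 differed by 0.89 and 0.90 (log2) in the inhibition and spermidine groups against control, but by 0.02 between those groups, and total-count scaling moves the median gene by 0.26 there. The cause of the other turns was not tested.

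In spermidine with inhibition against inhibition, members higher numbered 8 rather than 5 by total count, and members lower numbered 0 rather than 1 with DESeq2, both limma fits and total-count scaling. Leaving out 1 library gave 5 to 6 higher and 0 to 1 lower there, 7 higher and 2 lower in inhibition against control, and 7 higher and 1 lower in spermidine with inhibition against control, where both limma fits gave 2 lower. Notch1 missed the threshold with DESeq2 in spermidine with inhibition against inhibition (adjusted p = 0.0514). With the replicate block, 6 members were higher there, Rag2 being added (log2 fold change 0.39, adjusted p = 0.049), and no other call of a member changed.
Depth limited Rag1, with 2 reads in all control libraries, and Ebf1 in control.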

Other observations

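Of 13 tested genes of CD27 and tumour necrosis factor receptor signalling, 5 were higher and 4 lower in inhibition against control (median log2 fold change -0.0015). Tnfrsf13b, a receptor of B cells and plasma cells, rose from 7.05 to 23.4 CPM (1.73 on the log2 scale, SE 0.088), in libraries where the plasma cell share was 0.446% to 0.478%. With spermidine, where that share was 0.205% to 0.222%, it was at 22.5 CPM (-0.05 against inhibition, SE 0.071, edgeR adjusted p = 0.559). The part of plasma cells in these values was not tested. Traf2, an adaptor that binds CD27, fell from 179.7 to 55.9 CPM (-1.68, SE 0.056), and Nfkb2 (-1.91, SE 0.088) and Birc3 (-1.44, SE 0.062) fell. With spermidine against inhibition 6 were higher and 2 lower, or 11 and 1 by total count.

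Of 10 tested partners of BCL11A and genes of fetal globin repression, 4 were higher and 5 lower in inhibition against control (median -0.14). Klf1, an erythroid factor that activates Bcl11a in red cell precursors, fell from 69.4 CPM in control to 4.50 CPM with inhibition (log2 fold change -3.94, SE 0.09) and 1.72 CPM with spermidine, while Bcl11a itself stayed between 46.8 and 64.0 CPM in all 9 libraries. Chd4 (-0.62, SE 0.066) and Mdm4 (-0.31, SE 0.052) fell and Mdm2 rose (0.71, SE 0.044).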
